A study of Mus musculus with 4 samples.

Results

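A set of 9 genes that sense oxygen or carry out the transcriptional response to it was followed in mouse E14 embryonic stem cells after knockdown of Lx8-SINE B2, a transcript labelled by repeat families. They included the alpha subunit genes Hif1a and Epas1 of the hypoxia-inducible factors HIF and the beta subunit genes Arnt and Arnt2. The others were the von Hippel-Lindau gene Vhl, the prolyl hydroxylase genes Egln1, Egln2 and Egln3, and the asparaginyl hydroxylase gene Hif1an. Hif3a, a further alpha subunit gene, was not in the set. The genes were chosen by symbol, and all 9 were found among the 35976 gene rows of the deposited count table. The knockdown group held 2 libraries, with 18592224 and 16383323 counts, and the control group held 2 libraries, with 19867689 and 19044832 counts. Knockdown cells carried the genotype label "knocked down", control cells the label "wild type", and both the strain label 12910la. E14 cells are a line from a mouse blastocyst, and all cells grew on 0.2% gelatin with 10 ng/ml of the cytokine LIF, which keeps them undifferentiated, and 15% serum under 5% CO2. The oxygen level is not among the labels. One protocol covers all samples: cells received 1000 ng of a pSuper puro plasmid for short hairpin RNA, and from 24 h after transfection were selected with 1 ug/ml puromycin for 3 days. The labels name no vector for the control cells. Only knockdown titles name a batch, so batch and knockdown cannot be told apart. No label says that replicates were separate cultures, and p-values therefore measure spread among these libraries, possibly technical spread.

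HIF is a dimer of an unstable alpha and a stable beta subunit. With oxygen at hand, prolyl hydroxylases (the EGLN or PHD enzymes) mark the alpha subunit, the VHL ubiquitin ligase recognises the mark, and the proteasome destroys the protein. The asparaginyl hydroxylase FIH, the product of Hif1an, separately blocks binding of the coactivators p300 and CBP. When oxygen falls, the alpha subunit escapes both controls and activates its targets, among them Egln3 and Egln1, whose products then act back on HIF. Egln2, Hif1an, Vhl, the beta subunits and the alpha genes Hif1a and Epas1 are usually counted as constitutive with respect to HIF. Most of this control acts on protein, which was not analysed here, so the values below describe messenger RNA alone. In bulk RNA, fewer cells with a transcript and less of it per cell cannot be told apart.

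Egln3 was the only gene of the 9 that was called in the main test. It fell 4.89-fold in the knockdown cells, and the other 8 genes did not pass the test. The second HIF-induced gene, Egln1, had a lower mean in the knockdown cells without passing, and Epas1, Arnt2, Hif1an, Egln2, Hif1a and Vhl had higher means in the knockdown cells, also without passing. Counts were scaled by library size and edgeR's TMM factors to CPM and compared with its quasi-likelihood test, in which a gene was called at a Benjamini-Hochberg adjusted p below 0.05 over 16209 tested genes. All 9 genes passed the filter on low counts. On simulated counts this test called 18.0% of 2-fold changes, so not passing does not show that a gene was unchanged. Of the 9, 1 was called (1.43% of all tested genes were). It was called lower, where 0.555% of all genes were, and 0 were called higher, where 0.876% were. At an unadjusted p below 0.05, 3 were higher and 2 lower, where 11% of all tested genes were higher and 8.58% lower. The likelihood ratio test of edgeR called 1 gene higher (Epas1), DESeq2 0 and limma-voom 0, where the background shares were 4.91%, 3.89% and 0.925%. Each of these tools called 1 of the 9 lower, against 3.17%, 3.18% and 0.561% of all genes. Epas1 was also called with all genes of at least 1 count kept (6.47% of genes called) and without control replicate 1 (3.41%), and not with a replicate block (4.05%). In all 9 genes the CPM of the groups did not overlap, 6 being higher in the knockdown libraries and 3 lower. This held for 51.9% of all tested genes, 27.3% higher and 24.6% lower. The median log2 fold change was 0.27 over the 9 genes and 0.01 over all tested genes.

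**Figure D1:**
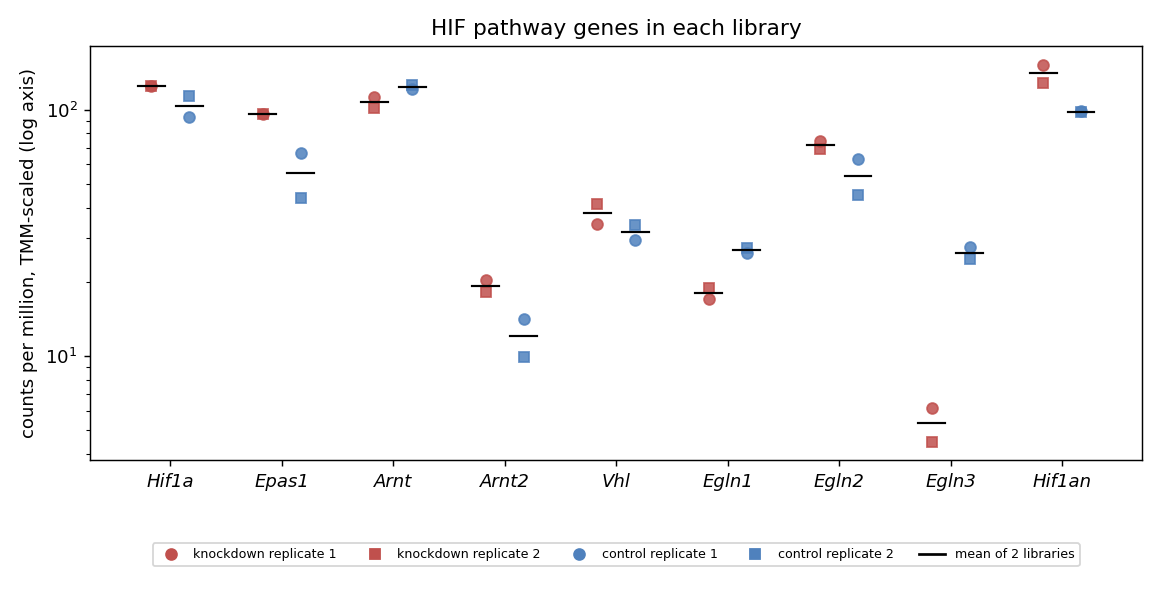
CPM of each gene in each library on a log axis, with knockdown libraries in red and control libraries in blue, circles for replicate 1, squares for replicate 2 and a bar at the mean of 2 libraries. Egln3 stands apart at 6.17 and 4.50 CPM in the knockdown libraries, against 27.7 and 24.7 CPM in the controls.

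The prolyl hydroxylase genes include both HIF-induced members of the pathway, so the 250 bases before the annotated start of each (RefSeq, GRCm38.p6, minus strand for all 3) are shown for comparison. Capitals mark ACGTG or GCGTG on either strand, the letters of the core that HIF binds. The windows lie at chr12:54203875-54204124 for Egln3, chr8:124949255-124949504 for Egln1 and chr7:27166803-27167052 for Egln2, where the first of 2 listed starts was taken.
Egln3: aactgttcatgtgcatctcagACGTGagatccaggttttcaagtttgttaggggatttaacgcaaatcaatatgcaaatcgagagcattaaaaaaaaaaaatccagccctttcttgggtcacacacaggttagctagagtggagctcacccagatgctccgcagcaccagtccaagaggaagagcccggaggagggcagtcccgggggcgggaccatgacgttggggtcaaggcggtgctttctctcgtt
Egln1: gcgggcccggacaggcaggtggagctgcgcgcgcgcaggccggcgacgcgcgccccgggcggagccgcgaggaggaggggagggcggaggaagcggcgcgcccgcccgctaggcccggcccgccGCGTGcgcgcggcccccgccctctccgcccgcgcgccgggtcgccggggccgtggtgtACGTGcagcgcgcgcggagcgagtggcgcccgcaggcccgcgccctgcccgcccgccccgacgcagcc
Egln2: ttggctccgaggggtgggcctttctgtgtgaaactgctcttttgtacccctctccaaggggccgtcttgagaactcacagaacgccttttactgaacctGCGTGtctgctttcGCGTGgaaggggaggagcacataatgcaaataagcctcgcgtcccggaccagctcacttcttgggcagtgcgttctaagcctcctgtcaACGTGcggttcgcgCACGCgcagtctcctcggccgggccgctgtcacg
Egln3 had 1 match, an ACGTG that begins 229 bases before the start. Egln1 had 2 matches, an ACGTG at 68 and a GCGTG at 126 bases before the start. In the GENCODE positions used below, Egln1 reaches 124949324, inside this window, so its ACGTG lies within the gene there. Egln2, the constitutive gene, had 4, an ACGTG at 48 bases and GCGTG matches at 34, 137 and 151 bases. One or both motifs occurred in the window of 5 of the 8 genes with an entry in the table, and in 38.6% of all 32851 windows of this length (ACGTG in 16.6% and GCGTG in 28.2%). Among the 15087 windows of tested genes the share was 53.0% (ACGTG in 20.5% and GCGTG in 42.2%). The 5-letter matches in these windows did not separate the called gene, Egln3, from the others, and a match is not evidence of binding. Sites outside the windows were not searched.

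Egln3 encodes PHD3, the prolyl hydroxylase most strongly induced by HIF in many cell types. The gene lies on chromosome 12 from 54178981 to 54203860 (mm10, minus strand), with 2662 bp of annotated exons, none of which overlaps an exon of another annotated gene. Egln3 had 118 and 74 reads in the knockdown libraries, against 524 and 476 reads in the control libraries. Scaled, this was 6.17 and 4.50 CPM in the knockdown libraries and 27.7 and 24.7 CPM in the controls. The highest knockdown library was far below the lowest control, and the spread within each group was small beside that gap. Its log2 fold change was -2.29 (standard error 0.29), with a 95% interval of -2.97 to -1.62 (edgeR adjusted p = 0.0173). Egln3 ranked 46th by p among all tested genes. It was called lower under all 13 alternatives tried, including each of the 4 fits that left out 1 library, with log2 fold changes from -2.54 to -2.08.

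Egln1 encodes PHD2, the main oxygen sensor that holds HIF1A down in oxygenated cells and itself a HIF target. It lies on chromosome 8 from 124908587 to 124949324. Its levels were 17.1 and 18.9 CPM in the knockdown libraries, against 26.3 and 27.5 CPM in the controls. Both knockdown libraries were lower, and libraries within a group differed by less than 2 CPM. A log2 fold change of -0.58 (standard error 0.23, 95% interval -1.11 to -0.06) did not pass the correction (edgeR adjusted p = 0.212), nor did it under any of the 13 alternatives.

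Egln2 encodes PHD1, a nuclear prolyl hydroxylase that HIF does not induce, on chromosome 7 from 27158658 to 27166802. It had 74.8 and 68.9 CPM in the knockdown libraries, against 62.9 and 44.8 CPM in the controls. The groups did not overlap, but control replicate 1 was nearer to the knockdown libraries than to control replicate 2. On the log2 scale the change was 0.42, with a 95% interval of -0.08 to 0.92 (edgeR adjusted p = 0.335). It was 0.14 without control replicate 2 and 0.68 without control replicate 1.

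The makeup of the prolyl hydroxylase transcripts can be given per length: dividing CPM by the kilobases of annotated exons makes levels of different genes more comparable. On that scale Egln3 made up 6.87% and 5.36% of the summed level of the 3 genes in the knockdown libraries, against 25.9% and 28.2% in the controls. Egln2 made up 79.1% and 78.0% in the knockdown libraries, against 55.9% and 48.6% in the controls. Egln1 made up 14.1% and 16.7% in the knockdown libraries, against 18.2% and 23.3% in the controls. The summed level itself was 33.8 and 31.6 CPM per kb in the knockdown libraries and 40.2 and 32.9 CPM per kb in the controls. The sums of the 2 groups overlapped, while the shares of each of the 3 genes did not. The shares of a library add up to the whole, so the 3 are not separate observations. In CPM, the groups did not overlap for 51.9% of all tested genes. Annotated exon length can differ from the length of the transcripts these cells make, which bears on the shares but not on a change within a gene.

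**Figure D2:**
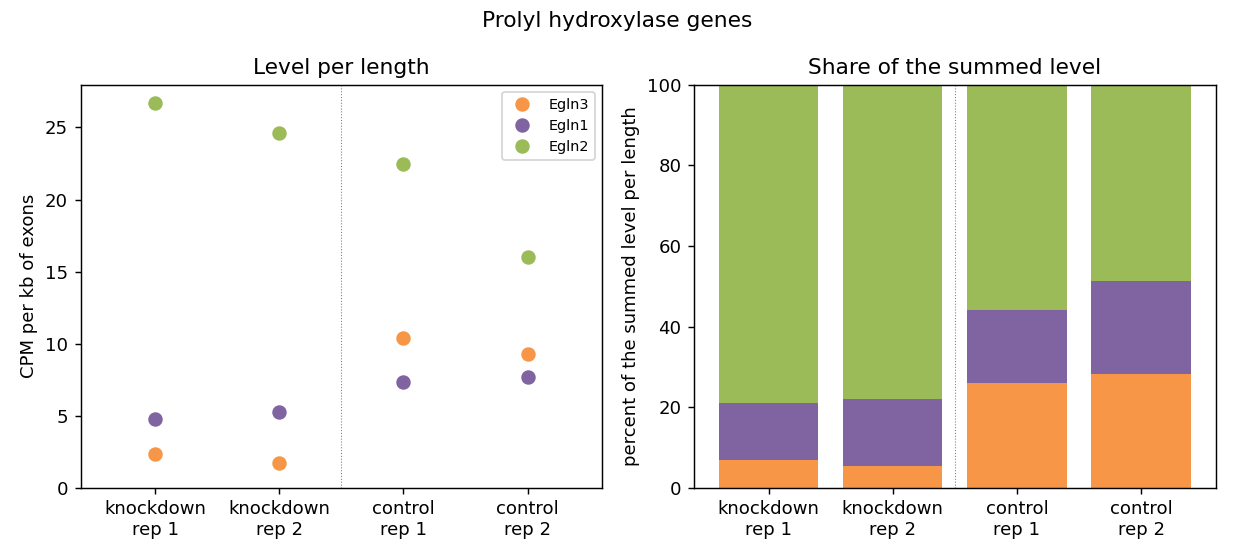
Left, CPM per kb of annotated exons of Egln3, Egln1 and Egln2 in each library. Right, the share of each in their summed level per length, with Egln3 at the bottom, at 6.87% and 5.36% in the knockdown libraries and 25.9% and 28.2% in the controls.

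Ratios within a library compare the HIF-induced with the constitutive genes free of library scaling. The log2 ratio of Egln3 to Egln2 in CPM averaged -3.77 ± 0.24 in the knockdown libraries and -1.02 ± 0.23 in the controls (SD, n = 2 each). The difference of -2.75 on the log2 scale is a 6.71-fold lower ratio. Egln3 to Egln1, the 2 induced genes, averaged -1.77 ± 0.43 in the knockdown libraries and -0.04 ± 0.17 in the controls, a difference of -1.73. Egln1 to Egln2 was -2.13 and -1.87 in the knockdown libraries, against -1.26 and -0.70 in the controls, a difference of -1.02 between the means. None of the 3 ratios overlapped between groups. The 3 ratios share their genes and are not separate observations, and in CPM 51.9% of all tested genes did not overlap either. A two-sided exact permutation test of 2 libraries against 2 gave p = 0.333 for each of the 3, the smallest this design can give, and 0.333 after adjustment over them, so this test could not reach 0.05 at any size of difference. The ratio of Egln3 to Egln1 was 3.31-fold lower in the knockdown libraries, so the 2 induced genes did not keep their ratio in these libraries.

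Hif1an, on chromosome 19 from 44562850 to 44576274, encodes the asparaginyl hydroxylase FIH. It had 152 and 128 CPM in the knockdown libraries, against 98.4 and 97.6 CPM in the controls. The controls were nearly identical, and both knockdown libraries were above them. A log2 fold change of 0.52 (standard error 0.18, 95% interval 0.11 to 0.92) did not pass (edgeR adjusted p = 0.161), nor did it under any of the 13 alternatives.

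Among the alpha subunits, Hif1a encodes HIF1A, the alpha subunit found in nearly all cells. It lies on chromosome 12 from 73901375 to 73947530 and had 125 and 124 CPM in the knockdown libraries, against 93.5 and 113 CPM in the controls. The knockdown libraries were almost equal and a little above control replicate 2. Knockdown over control, the log2 fold change was 0.27 (standard error 0.18), with a 95% interval of -0.14 to 0.68 (edgeR adjusted p = 0.446). The antisense gene Gm15283 overlaps 330 bp of its exons and averaged 0.73 CPM. Gm49321, a protein-coding gene on the same strand, overlaps 148 bp (2.51%) of the Hif1a exons. Whether counting used strand is not given in the sources used here.

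Epas1 encodes HIF2A, an alpha subunit best known from endothelium and from cells that make erythropoietin. On chromosome 17 from 86753700 to 86833410, it had 95.5 and 96.1 CPM in the knockdown libraries, against 66.7 and 43.8 CPM in the controls. The knockdown libraries agreed closely and the controls did not. The estimated log2 fold change was 0.79 (standard error 0.23), with a 95% interval of 0.27 to 1.32, and it did not pass (edgeR adjusted p = 0.116). The call depended on the filter, the test and the control libraries. With all 4 libraries it was called when every gene with at least 1 count was kept (edgeR adjusted p = 0.0151) and by the likelihood ratio test (edgeR adjusted p = 0.0430). Without control replicate 1 the value was 1.13 and was called (edgeR adjusted p = 0.0290), and without control replicate 2 it was 0.47 and was not (edgeR adjusted p = 0.179). Over the 13 alternatives the adjusted p ranged from 0.0151 to 0.368. Endoderm markers were also higher in the knockdown libraries, with a summed level over 6 markers of 27.6 and 19.0 CPM in the knockdown libraries, against 8.72 and 9.49 CPM in the controls. Of these markers, 2 averaged below 1 CPM and the 4 tested ones had edgeR adjusted p from 0.110 to 0.277. Their part in the Epas1 values was not tested.

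Per length, the summed level of the alpha genes Hif1a and Epas1, without Hif3a, was 38.3 CPM per kb in both knockdown libraries, against 27.79 and 27.05 CPM per kb in the controls. Hif1a made up 55.4% and 55.1% of it in the knockdown libraries, against 57.1% and 71.0% in the controls. The share in control replicate 1 was close to that of the knockdown libraries, so the makeup did not separate the groups by more than the controls differed from each other.

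The beta subunit gene Arnt encodes the common partner of the HIF alpha proteins and of other factors with basic helix-loop-helix and PAS domains. On chromosome 3 from 95434388 to 95497240, it had 112 and 102 CPM in the knockdown libraries, against 122 and 126 CPM in the controls. Its log2 fold change of -0.21 (95% interval -0.60 to 0.18) did not pass (edgeR adjusted p = 0.531). Arnt2, a paralogue best known from neurons, was the scarcest of the 9 genes per length in the controls. On chromosome 7 from 84246278 to 84410176, it had 20.4 and 18.1 CPM in the knockdown libraries, against 14.2 and 9.91 CPM in the controls. On the log2 scale it was higher by 0.68 (standard error 0.29), with a 95% interval of 0.02 to 1.34 (edgeR adjusted p = 0.244). It ranged from 0.39 to 0.96 over the fits that left out 1 library. Arnt2 made up 15.95% and 15.6% of the summed beta level per length in the knockdown libraries, against 10.8% and 7.58% in the controls, so Arnt was the main beta transcript throughout.

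Vhl encodes the subunit that recognises hydroxylated HIF alpha in the ubiquitin ligase. On chromosome 6 from 113623959 to 113631633, it had 34.5 and 41.3 CPM in the knockdown libraries, against 29.5 and 34.1 CPM in the controls. Knockdown replicate 1 and control replicate 2 were almost equal. A log2 fold change of 0.25 (95% interval -0.24 to 0.74) did not pass (edgeR adjusted p = 0.559).

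**Figure D3:**
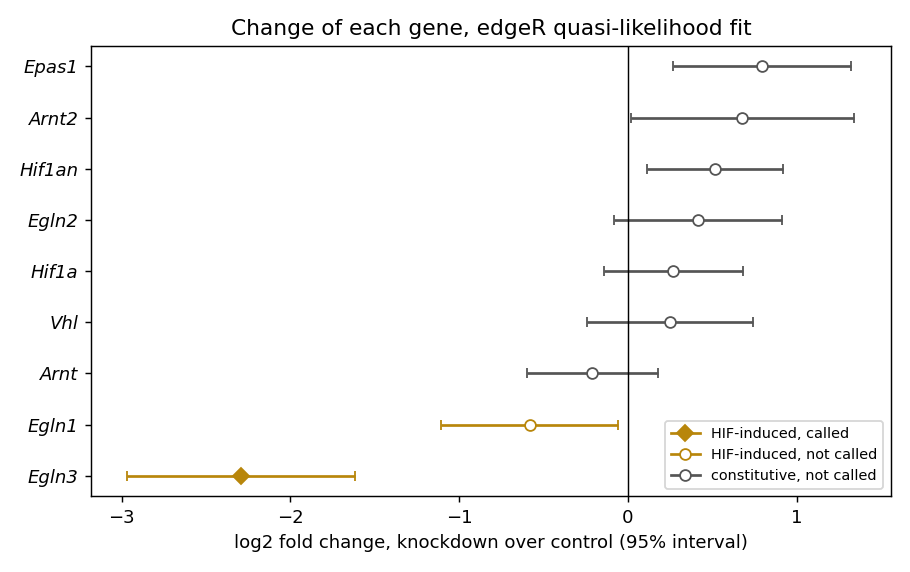
Log2 fold change of each gene, knockdown over control, with 95% intervals from edgeR's quasi-likelihood fit, in gold for HIF-induced and grey for constitutive genes. The filled diamond is the called gene, Egln3, at -2.29, and the open circles are the 8 genes that were not called, of which Egln1, at -0.58, is the next lowest.

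The order of levels per length shows where Egln3 ended up. In the knockdown libraries Egln2 was highest at 25.7 ± 1.48 CPM per kb (SD, n = 2), followed by Hif1an, Hif1a, Epas1, Arnt, Vhl, Egln1 and Arnt2, and Egln3 was last at 2.00 ± 0.44. In the controls Egln2 was also highest, at 19.2 ± 4.56 CPM per kb, followed by Hif1a, Arnt, Hif1an, Vhl and Epas1. Egln3 came seventh in the controls at 9.84 ± 0.80 CPM per kb, above Egln1 at 7.49 ± 0.25, and Arnt2 was last at 1.57 ± 0.39. Among the knockdown libraries, the values of Hif1an and Hif1a overlapped, as did those of Arnt and Vhl. Among the controls, Egln2 and Hif1a overlapped, and Vhl, Epas1 and Egln3 overlapped each other.

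Beyond the 9 genes, 6 lists of genes of the pathway were compared. The lists were chosen with earlier results of these data known, so their counts are not an independent test. HIF-induced regulators, Cited2 among them, are in a list of their own and not among the HIF targets, apart from Egln3 and Egln1. Counts at an unadjusted p below 0.05 are to be read against the shares of all tested genes, 11% higher and 8.58% lower. For calls by the quasi-likelihood test these shares were 0.876% higher and 0.555% lower. They were 3.89% and 3.18% for DESeq2, 0.925% and 0.561% for limma-voom and 4.91% and 3.17% for the likelihood ratio test. Other settings have other shares. Of 25 known HIF targets other than the enzymes of the glycolytic steps (Egln3 and Egln1 are included, as are the glycolysis regulators Pfkfb3 and Pfkfb4), 5 fell and 0 rose, with a median log2 fold change of -0.76. At an unadjusted p below 0.05, 16 were lower (8.58% of all tested genes) and 0 higher (11%). DESeq2 called 8 lower, limma-voom 5 and the likelihood ratio test 9, and each called 0 higher. In 18 of the 25 both knockdown libraries were below both controls, which held for 24.6% of all tested genes. Bnip3, a mitophagy receptor gene, had 20.1 and 19.4 CPM in the knockdown libraries, against 103 and 144 CPM in the controls (log2 fold change -2.64, edgeR adjusted p = 0.00967). Antisense exons of Gm45507 cover 22.25% of its exon length. Ndufa4l2, which lowers mitochondrial respiration in hypoxia, had 1.41 and 2.19 CPM in the knockdown libraries, against 20.4 and 24.4 CPM in the controls (log2 fold change -3.64, edgeR adjusted p = 0.00967). Loxl2, a lysyl oxidase gene, had 5.39 and 3.41 CPM in the knockdown libraries, against 24.5 and 44.5 CPM in the controls (log2 fold change -2.96, edgeR adjusted p = 0.0178). In these genes, as in Egln3, every knockdown library was below every control.

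A list of 10 HIF-induced regulators held both genes that restrain HIF and genes that favour it, such as Siah2, whose product degrades prolyl hydroxylases. Of these, 1 was called lower (0.555% of all tested genes were) and 0 higher (0.876%), at a median log2 fold change of -0.23. At an unadjusted p below 0.05, 2 were higher and 4 lower (11% and 8.58% of all tested genes). DESeq2 and the likelihood ratio test each called 2 higher and 3 lower, and limma-voom called 0 higher and 2 lower. The gene that fell, Bhlhe40, which encodes a transcriptional repressor, had 11.8 and 15.8 CPM in the knockdown libraries, against 35.8 and 46.1 CPM in the controls (log2 fold change -1.57, edgeR adjusted p = 0.0355). It was not called without control replicate 2, at -1.43, or without knockdown replicate 1, at -1.38. Cited2, which competes with HIF for p300 and CBP, was chosen after its values were seen. It had 59.1 and 82.6 CPM in the knockdown libraries, against 33.0 and 26.1 CPM in the controls, with a log2 fold change of 1.26 that narrowly missed the threshold (edgeR adjusted p = 0.0503). The list also held Hif3a, at 7.90 and 4.44 CPM in the knockdown libraries, against 15.1 and 21.6 CPM in the controls. Its log2 fold change of -1.57 was not called (edgeR adjusted p = 0.0793), and Hif3a too was named after its values were seen.

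A further list held 16 coactivators, chaperones and other proteins that set HIF stability or activity. Of these, 2 were called higher (0.876% of all tested genes were) and 0 lower (0.555%), at a median log2 fold change of 0.14. At an unadjusted p below 0.05, 4 were higher (11% of all tested genes) and 1 lower (8.58%), and DESeq2 called 2 higher and 1 lower, limma-voom 1 higher and 1 lower and the likelihood ratio test 2 higher and 1 lower. Crebbp encodes CBP, the coactivator whose contact with HIF alpha FIH blocks. It had 241 and 211 CPM in the knockdown libraries, against 97.9 and 89.8 CPM in the controls (log2 fold change 1.27, edgeR adjusted p = 0.0208), and was called under all 13 alternatives. Ncoa2, a steroid receptor coactivator gene, had 116 and 117 CPM in the knockdown libraries, against 65.1 and 53.6 CPM in the controls. Its log2 fold change of 0.97 passed narrowly (edgeR adjusted p = 0.0498) and failed under 6 of the 13 alternatives, among them without control replicate 2 at 0.79 and without either knockdown library, at 0.97 without replicate 1 and 0.96 without replicate 2.

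Other parts of the ligase and of the oxygen-sensing families gave no calls. Among 11 genes of the VHL ligase and its partners, 0 were called by edgeR's quasi-likelihood test, DESeq2, limma-voom or the likelihood ratio test, and 0 had an unadjusted p below 0.05. The most abundant, Ube2d3 and Ube2d2a, had log2 fold changes of 0.06 and 0.04. Of 11 other basic helix-loop-helix PAS genes 6 were tested and 0 called, with 2 higher at an unadjusted p below 0.05 (11% of all tested genes) and 2 called higher by DESeq2, 2 by the likelihood ratio test and 0 by limma-voom. The abundant members were Clock at 0.11 and Arntl, which encodes the clock factor BMAL1, at 0.97 on the log2 scale (edgeR adjusted p = 0.0911). Arntl2, named after its values were seen, had the largest log2 fold change of this list, 2.00, without being called (edgeR adjusted p = 0.0543). It had 7.38 and 10.0 CPM in the knockdown libraries, against 2.43 and 1.92 CPM in the controls. A fit with a replicate block called 2 genes of this list higher, where 2.64% of all tested genes were. Among 17 other oxygen-dependent dioxygenase genes 0 were called, with 3 higher at an unadjusted p below 0.05 (11% of all tested genes) and 0 called by DESeq2, limma-voom or the likelihood ratio test. The most abundant, the histone demethylase genes Kdm5b and Kdm5c, had log2 fold changes of 0.13 and 0.22. With all genes of at least 1 count kept, 1 gene of this list was called, where 6.47% of all tested genes were.

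The genes whose profile over the 4 libraries lay nearest to that of Egln3 were Fgf15, Aifm3, Ankrd37, Camkv and Pgk1. Likeness was the Euclidean distance between log2 CPM values centred on each gene's mean, among 11054 other genes with at least 5 CPM on average, and ran from 0.24 for Fgf15 to 0.37 for Pgk1. Genes picked in this way share the fall of Egln3 by construction, so their changes and p-values are not separate evidence. Pgk1, the phosphoglycerate kinase gene of glycolysis, had 286 and 277 CPM in the knockdown libraries, against 1216 and 1124 CPM in the controls (edgeR adjusted p = 0.00967). It was the most abundant of the 5. Ankrd37, an ankyrin repeat gene that HIF induces, had 3.09 and 1.70 CPM in the knockdown libraries, against 12.1 and 9.86 CPM in the controls. Its log2 fold change of -2.19 was not called (edgeR adjusted p = 0.0503), and was called under 6 of the 13 alternatives, 5 of them with all libraries kept (among them limma-voom, adjusted p = 0.0477) and 1 without knockdown replicate 1, at -2.69. Fgf15, which encodes a secreted fibroblast growth factor, had 2.56 and 1.64 CPM in the knockdown libraries, against 11.4 and 11.8 CPM in the controls. Its call (edgeR adjusted p = 0.0309) was lost without knockdown replicate 2, at -2.18. Aifm3, which encodes a mitochondrial apoptosis-inducing factor, had 2.25 and 2.01 CPM in the knockdown libraries, against 11.1 and 8.72 CPM in the controls. Its call (edgeR adjusted p = 0.0393) was lost without control replicate 1, at -2.03, or knockdown replicate 2, at -2.14. Camkv, which encodes a kinase-like vesicle protein, had 9.10 and 5.53 CPM in the knockdown libraries, against 44.3 and 30.4 CPM in the controls (log2 fold change -2.35, edgeR adjusted p = 0.0233). Antisense exons overlap 24.9% of the exon length of Fgf15, exons of Lrp2bp on the other strand overlap 22.7% of that of Ankrd37, and Pgk1 has near-identical processed copies, so these counts are uncertain to that extent.

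The identity of the cells was checked with markers. All 8 embryonic stem cell markers were above 1 CPM on average, with a summed level of 5208 and 5704 CPM in the knockdown libraries, against 7188 and 7096 CPM in the controls. Of these, Tdgf1, which encodes a co-receptor of Nodal signalling, was called lower, at 571 and 602 CPM in the knockdown libraries, against 1133 and 1552 CPM in the controls (edgeR adjusted p = 0.0438). Dppa5a was also lower in both knockdown libraries without being called (edgeR adjusted p = 0.130), and the other 6 markers, Pou5f1, Sox2 and Nanog among them, overlapped between groups. Of 8 fibroblast markers, 5 averaged below 1 CPM, among them Lum and Postn at 0 in every library, and the sum was 33.0 and 31.7 CPM in the knockdown libraries, against 58.0 and 51.7 CPM in the controls. Neural and mesoderm markers summed to 115 and 103 CPM in the knockdown libraries, against 103 and 104 CPM in the controls, and most of that sum was Tubb3. Within that list Kdr, the VEGF receptor gene, had 10.2 and 9.24 CPM in the knockdown libraries, against 2.64 and 2.65 CPM in the controls (edgeR adjusted p = 0.0503), and T, a mesoderm factor gene, had 0.262 and 0.243 CPM in the knockdown libraries, against 0.740 and 0.882 CPM in the controls (edgeR adjusted p = 0.205). Kdr and T were not named by a rule. Of the 6 tested neural and mesoderm markers, 2 were higher and 2 lower in both knockdown libraries, and 2 overlapped. Among all tested genes 27.3% were higher in this way and 24.6% lower. The part of these marker shifts in the Egln3 values was not tested. No level of the targeted transcript was analysed.

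**Figure D4:**
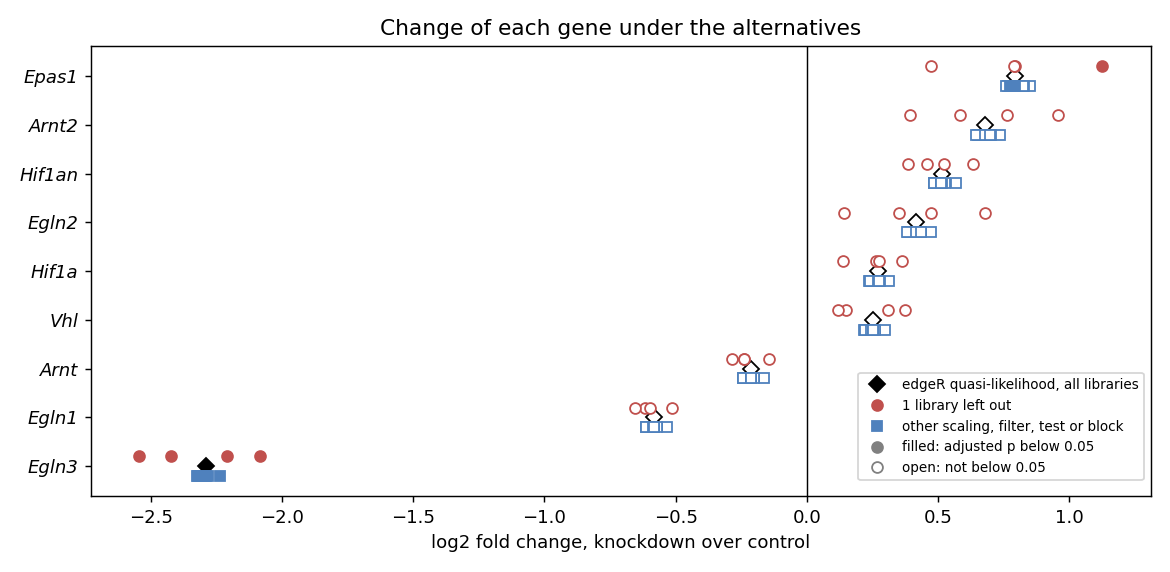
Log2 fold change of each gene, knockdown over control, in the fit of all libraries (black diamonds), without 1 library (red circles) and under other scalings, filters, tests or the replicate block (blue squares), filled where the adjusted p was below 0.05. Egln3 stays between -2.54 and -2.08 and is filled throughout, and Epas1 spreads from 0.47 to 1.13 according to the control library left out.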

How the data were processed

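The values are raw counts of reads for each gene in 4 libraries, deposited by the authors as 1 table. Per the submitters' processing notes, reads were handled with cutadapt, HISAT2 and featureCounts on mm10. Versions, annotation, strand setting and the handling of multi-mapping reads are not given there. Of 36068 rows, 92 spike-in rows held no counts and were dropped. In 27 of the remaining 35976 rows a spreadsheet had turned the symbol into a date. They hold 0.151% to 0.177% of a library's counts and stayed in.

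The counts were filtered with filterByExpr (16209 genes kept), scaled by TMM and fitted with edgeR 4.0.16 in R 4.3.3, quasi-likelihood test, group as the only term. Standard errors are the log2 fold change divided by the root of F. DESeq2 1.42.0 and limma-voom (limma 3.58.1) were alternatives, with other scalings and filters, the likelihood ratio test, a replicate block and each library left out. Where 1 library of a group was left out, the remaining library was taken to vary as much as the other group does. Counts had 16383323 to 19867689 reads per library. Chi-square per degree of freedom within a group was 19.7 for the knockdown and 42.3 for the control libraries, so no library is a repeat of another.

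Gene positions, exon lengths and overlaps come from GENCODE M21 (GRCm38, the build of mm10), and promoter windows from RefSeq (GRCm38.p6). Each motif was searched on both strands, so a palindromic CACGTG counts as 2 ACGTG matches. Genes named by rule are the 9 members, up to 4 called genes of each list (or its 2 most abundant) and the 5 nearest to Egln3. Values of Cited2, Hif3a, Arntl2 and single cell type markers were given outside that rule. The members and lists were chosen with earlier results of these data known. On simulated counts with 200 of 16209 genes changed, the quasi-likelihood test called 72.0% of 4-fold and 18.0% of 2-fold changes, and 11.1% of its calls were unchanged genes.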

Additional observations from a re-analysis of the deposited data

How the results depend on the processing

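Egln3 was called lower under all 13 alternatives, and the sign of none of the 9 genes changed under any of them. The 9 genes held 1 call in 10 of the 13 and 2 calls, Egln3 and Epas1, in 3: with all genes of at least 1 count (6.47% of all genes called), with the likelihood ratio test (8.08%) and without control replicate 1 (3.41%). Leaving out 1 library gave 1 to 2. The genes called in all, 232, numbered 1717 with all genes of at least 1 count, 1074 with DESeq2, 1310 with the likelihood ratio test and 153 to 587 with 1 library left out. With the replicate block 656 genes were called, and 1 of the 9. Across all tested genes, replicate numbers gave no sign of pairing the libraries (Pearson correlation of replicate differences -0.052). This 1 value cannot show whether some genes were paired. Without 1 library, the log2 ratio difference of Egln3 to Egln2 lay between -2.91 and -2.58, that of Egln3 to Egln1 between -2.03 and -1.43 and that of Egln1 to Egln2 between -1.30 and -0.74. Over the alternatives with all 4 libraries, counts of called genes ranged from 5 to 11 (5 as reported) for HIF targets. For HIF-induced regulators they ranged from 0 to 6 (1) and for coactivators and stability factors from 1 to 4 (2). The range was 0 to 2 (0) for PAS factors and 0 to 1 (0) for dioxygenases. Each highest count was reached with all genes of at least 1 count, where 6.47% of all genes were called, against 1.43% in the main test. With 1 library left out, signs changed for Ube2d3 (-0.080 to 0.19), Ube2d2a (-0.15 to 0.21) and Clock (-0.20 to 0.43), and the cause was not tested. Bhlhe40 was lost with library size alone (edgeR adjusted p = 0.0518), as was Aifm3 (0.0508). In counts simulated at this depth and number of libraries, 18.0% of 2-fold changes were called, and the parts of depth and of library number in this were not separated.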
